A study of Mus musculus with 4 samples.

Results

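The collagen chain genes of the mouse, those whose symbol is Col, a number, the letter a and a number, were described across 4 single-cell libraries of aortic smooth muscle cells. Of the 32287 features counted in each library, 44 matched, and all 44 were found by identifier in the GENCODE M21 annotation of GRCm38/mm10. In 23 of them at least 1 group of cells reached 5 CPM (UMIs of the gene scaled to the total of the group, the level used throughout), 20 stayed below that level in every group, and Col6a5 had no UMI. A UMI marks 1 captured transcript molecule, and the assay counts 3′ ends. Capture differs between genes and the treatment of intronic reads is not stated, so the levels of different genes are not ranked against each other.

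The mice were 12 weeks old and carried Wnt1-Cre2 and the mT/mG reporter, which turns from membrane tdTomato to membrane eGFP in a cell whose ancestor expressed the Cre; Wnt1-Cre2 acts in the neural crest. Cells were sorted for ITGA8, a surface integrin of smooth muscle, and by colour. The libraries were the aortic root (Root, no colour in its label, 2960 cells), the ascending aorta's eGFP cells (Asc-GFP, 6408) and tdTomato cells (Asc-RFP, 4030) and eGFP cells of the arch (Arch-GFP, 8031 cells). Root was split by its reporter UMIs into 576 Root eGFP cells and 1822 Root tdTomato cells, with 37 cells holding both and 525 left unassigned. Each group was 1 library or a piece of one, the number of animals behind it was not stated in the labels, and all the animals carried the Cre, so the colour separates ancestry within these mice and no group lacks the alleles.

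Median depth per cell was 12628 to 13605 UMIs in the 4 libraries, and all 8 smooth muscle markers exceeded 5 CPM in every group, with a summed level of 41739 to 48290 CPM. Other cells were present. Root held 100 barcodes with macrophage markers and Asc-RFP 48, while the libraries Asc-GFP and Arch-GFP held 1 each. Endothelial markers were carried by 42 barcodes in Root, 14 in Asc-RFP, 2 in Asc-GFP and 0 in Arch-GFP. Fibroblast markers were carried by 19 barcodes in Root, 13 in Asc-RFP, 1 in Asc-GFP and 26 in Arch-GFP. Of the cells assigned a sex by Xist and Y-linked RNA, the female share was 87.8% for Root, 70.1% for Asc-GFP, 54.4% for Asc-RFP and 29.1% for Arch-GFP, so sex and segment moved together. In all, 55 barcode sequences, 0.257% of the cells, occurred in more than 1 library.

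Collagens are trimers of alpha chains wound into a triple helix, some of 1 kind of chain and some of several. Fibrillar collagens (types I, III and V) form the cables that bear tension in the aortic wall, and FACIT collagens (such as types XIV and XVI) sit on the surface of those fibrils. Type IV collagen forms the network of the basement membrane around each smooth muscle cell, type VI forms beaded filaments beside it, type VIII is a short-chain collagen known from vessels and the eye, and types XV and XVIII, the multiplexins, carry large glycosaminoglycan-bearing domains at basement membranes.

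Several type IV genes stand head to head in the genome. Col4a1 and Col4a2 begin on opposite strands of chromosome 8 with 22 shared bases. Col4a4 starts at position 82586849 of chromosome 1 on the minus strand and Col4a3 at 82586921 on the plus strand. The 71 bases between those annotated starts, chr1:82586850-82586920 on the plus strand of GRCm38.p6 (RefSeq promoter table), are shown because both genes were higher in the root. The second stretch, the 250 bases before the start of Col8a1 (chr16:57754738-57754987, minus strand, same build), is shown because Col8a1 had the largest called ratio of the 23 genes. Capitals mark matches to GGGCGG (the GC box), CCAAT or TATAAA on either strand.
Col4a4 to Col4a3: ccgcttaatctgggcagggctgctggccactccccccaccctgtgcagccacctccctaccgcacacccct
Col8a1: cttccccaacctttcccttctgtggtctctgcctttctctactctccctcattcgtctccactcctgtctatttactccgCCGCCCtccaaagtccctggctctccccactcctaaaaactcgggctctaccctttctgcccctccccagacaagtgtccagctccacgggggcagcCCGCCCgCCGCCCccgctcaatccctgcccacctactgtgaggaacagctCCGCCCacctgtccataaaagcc
The stretch between Col4a4 and Col4a3 held none of the 3 motifs and was 69.0% G or C. The Col8a1 stretch held 4 matches, all to the reverse complement of GGGCGG, and was 60.8% G or C. The promoter table (windows of 300 bases, 250 before the start and 50 after) held 35 of the 44 genes, 19 of them among the 23. Of the 21 windows of those 19 genes, 14 held GGGCGG, 6 held CCAAT and 1, that of Col3a1, held TATAAA; over all 32544 windows the shares were 35.9%, 37.4% and 13.6%. Not in the table were Col1a1, Col2a1, Col4a3, Col5a2, Col9a3, Col12a1, Col14a1, Col22a1 and Col26a1.

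Collagen RNA as a whole was a little lower in the root than further along the aorta, and its make-up differed. The 44 genes together took 5775 CPM in Root eGFP and 5898 in Root tdTomato, against 6817 in Asc-GFP, 6554 in Asc-RFP, with 6792 in Arch-GFP. Fibrillar chains gave 47.9% and 46.6% of collagen UMIs in the Root groups and 56.5%, 53.6% and 52.2% in the other 3. Network chains went the other way, at 26.8% and 25.2% in the root against 19.2%, 21.1% and 19.3%. Beaded filament chains made up 4.49% and 4.87% in the root, 6.08% and 6.85% in the ascending aorta and 8.23% in the arch. In the middle cell of each group, collagen UMIs were 0.503% of all UMIs in Root eGFP, 0.549% in Root tdTomato, 0.616% in Asc-GFP, 0.613% in Asc-RFP, with 0.624% in Arch-GFP.

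**Figure D1:**
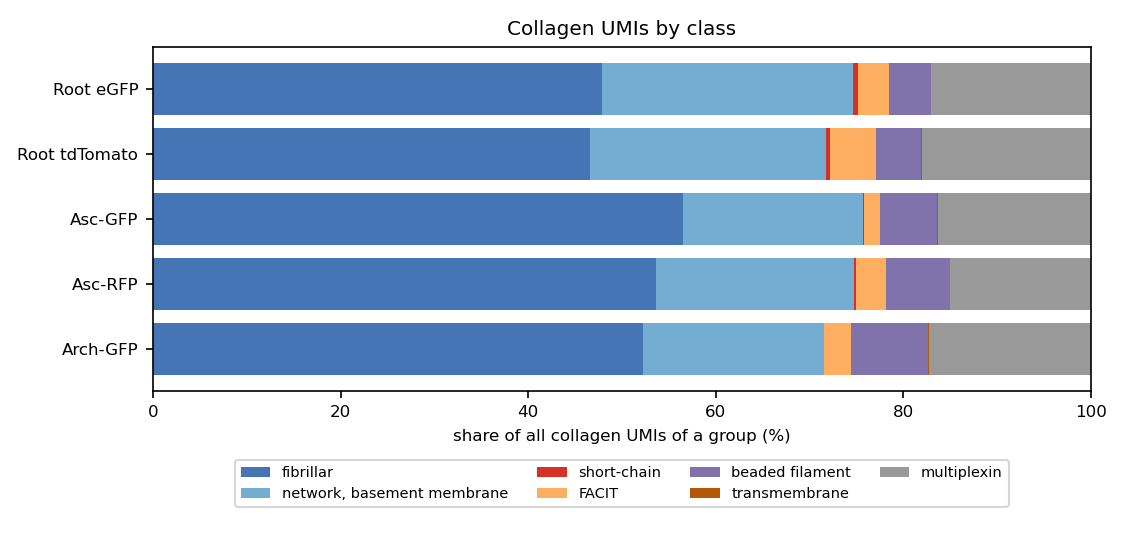
Share of all collagen UMIs (x axis, percent) taken by each collagen class in the 5 reporter-defined groups; classes with under 0.01% of collagen UMIs are not drawn. The fibrillar segment is 46.6% to 47.9% in the Root groups and 52.2% to 56.5% in the ascending and arch groups.

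The 6 pairs of groups were compared by the log2 ratio of their levels. Because each group is a single library or part of one, no test of the conditions could be made, and the 95% intervals given after each ratio cover counting error only, not the spread between animals. A gene was measured at 5 CPM or more in either group and called at 1.5-fold or more with an interval that leaves out equality. Several comparisons share a group (Asc-GFP and Root eGFP each enter 3), so their results are not independent of each other.

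By colour within the ascending aorta, 0 of 22 measured collagen genes were higher in Asc-GFP than in Asc-RFP and 3 were lower, Col8a1, Col14a1 and Col16a1; over all genes 1.32% were higher and 1.55% lower. By colour within the root, 1 of 22 was higher in Root eGFP than in Root tdTomato, Col19a1, and 2 were lower, Col14a1 and Col16a1, beside 1.09% and 3.1% of all genes. The 2 FACIT genes Col14a1 and Col16a1 were thus lower in the eGFP cells of both segments. By segment in eGFP cells, 3 of 22 were higher in Arch-GFP than in Asc-GFP (Col6a6, Col14a1, Col23a1) and 0 lower, beside 1.73% and 0.534%.

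More genes were called in the comparisons of the root with other segments. Against Asc-RFP, Root tdTomato had 4 of 22 genes higher (Col4a4, Col6a6, Col8a1, Col16a1) and 4 lower (Col5a1, Col6a1, Col6a2, Col15a1), beside 4.36% and 2.28% of all genes. Against Asc-GFP, Root eGFP had 5 of 22 higher (Col4a3, Col4a4, Col8a1, Col14a1, Col16a1) and 5 lower (Col1a1, Col1a2, Col6a1, Col6a2, Col15a1), beside 2.8% and 2.97%. Between the ends of the sampled aorta, Arch-GFP had 8 of 23 higher than Root eGFP (Col1a1, Col1a2, Col5a1, Col6a1, Col6a2, Col6a6, Col15a1, Col23a1) and 5 lower (Col4a3, Col4a4, Col8a1, Col16a1, Col19a1), beside 5.53% and 3.73%. The median log2 ratio of the measured collagen genes was -0.04, 0.02, -0.20, -0.15, 0.14 and -0.02 in Asc-GFP against Asc-RFP, Arch-GFP against Asc-GFP, Root tdTomato against Asc-RFP, Root eGFP against Asc-GFP, Arch-GFP against Root eGFP and Root eGFP against Root tdTomato, where the median of all genes was 0.02, 0.03, 0.01, -0.01, 0.05 and 0.01.

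**Figure D2:**
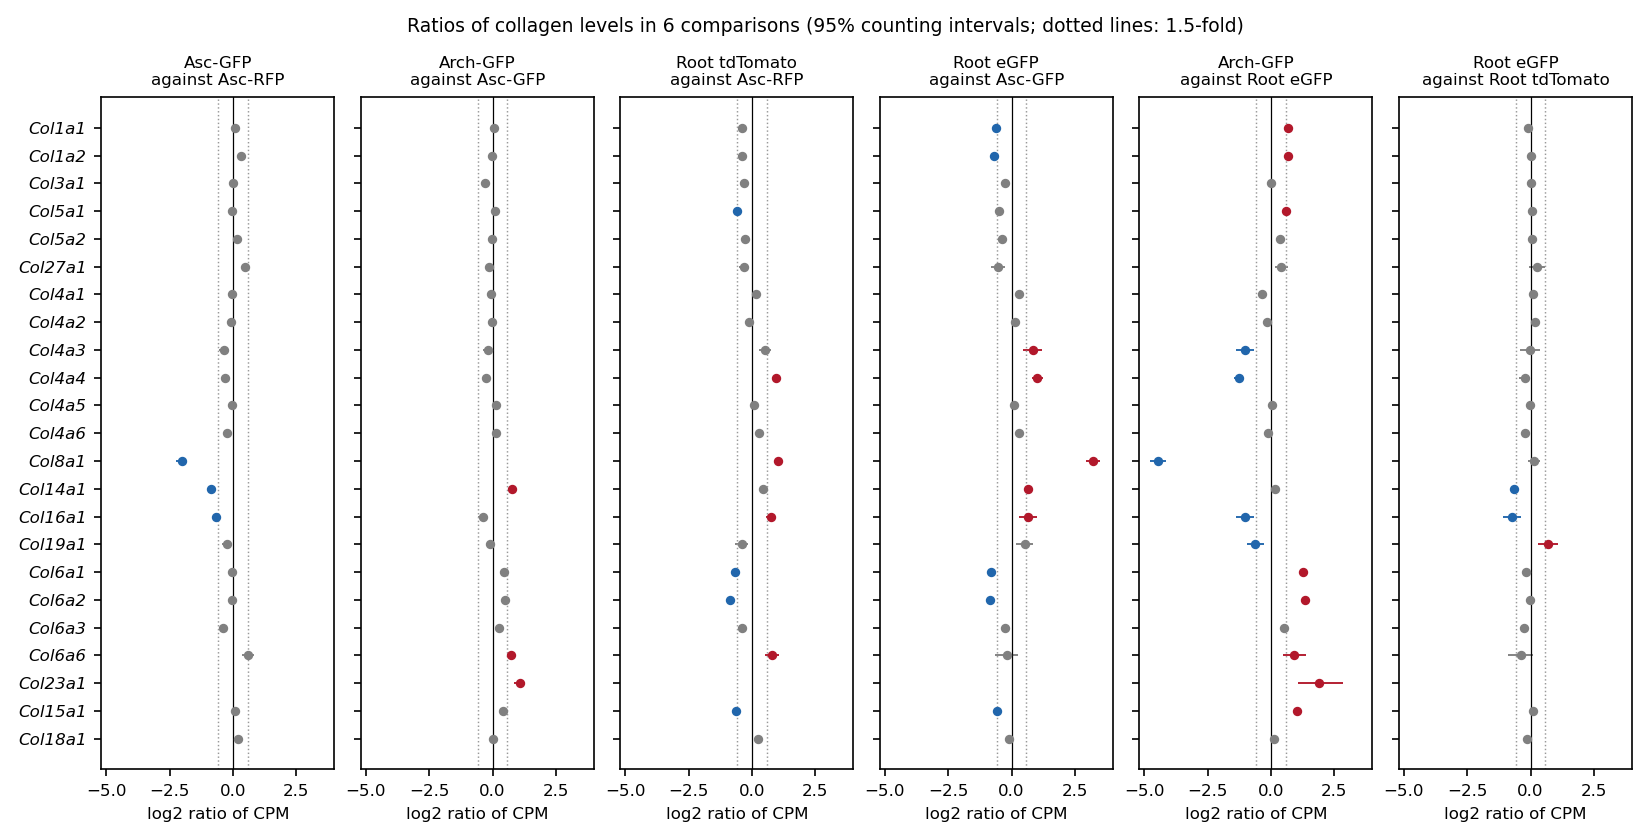
Log2 ratio of CPM (x axis) of the 23 collagen genes in the 6 comparisons, with 95% counting intervals as lines; red points were called higher in the group named first, blue points lower, grey points neither, and genes under 5 CPM in both groups are not drawn. Col8a1 spans -4.46 to 3.21, and most other points lie within 1 log2 unit of 0.

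Among the fibrillar genes, the 2 chains of type I collagen were lower in the root. Col1a1 (chr11:94936224-94953042), which supplies 2 of the 3 chains of the common type I trimer, was at 325 CPM in Root eGFP, 351 in Root tdTomato, 496 in Asc-GFP, 466 in Asc-RFP, with 511 in Arch-GFP. Col1a2 (chr6:4504814-4541544), the other chain, was at 918, 903, 1476, 1176 and 1442 CPM in the same order. Both Root groups lay under all 3 other groups for both chains. Root eGFP was below Asc-GFP by -0.61 (-0.67 to -0.55) for Col1a1 and -0.68 (-0.72 to -0.65) for Col1a2, and Arch-GFP was above Root eGFP by 0.65 for each (0.60 to 0.71 and 0.62 to 0.69). Root tdTomato lay below Asc-RFP by -0.41 and -0.38, short of the call.

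Col3a1, the sole chain of the type III homotrimer that copolymerises with type I, was at 1265, 1249, 1534, 1551 and 1247 CPM in the same order and was called in none of the 6 comparisons. Arch-GFP stood with the Root groups for this gene and not with the ascending aorta. Col5a1, a type V chain that takes part in starting fibrils, was at 79.1, 75.3, 111, 115 and 120 CPM, lower in Root tdTomato than in Asc-RFP by -0.61 (-0.68 to -0.53) and higher in Arch-GFP than in Root eGFP by 0.60 (0.49 to 0.72). Its partner Col5a2 (160, 152, 207, 187 and 204 CPM) and the minor fibrillar gene Col27a1 (16.4, 13.8, 23.7, 17.2 and 21.8 CPM) were also lowest in the Root groups and were not called.

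The UMI ratio of paired chains differed between groups for type I and type IV collagen. Col1a1 had 0.336 UMIs for each Col1a2 UMI in Asc-GFP (0.332 to 0.340) and 0.397 in Asc-RFP (0.391 to 0.402). The other groups lay between, although the type I trimer holds more of the Col1a1 chain. Col4a1 had 1.88 and 1.97 for each Col4a2 UMI in the Root groups (1.80 to 1.97 and 1.92 to 2.02) and 1.66 to 1.71 elsewhere. Capture of the 3′ end differs between genes, so the ratio within a group says nothing of chain numbers, and only its movement between groups is comparable.

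**Figure D3:**
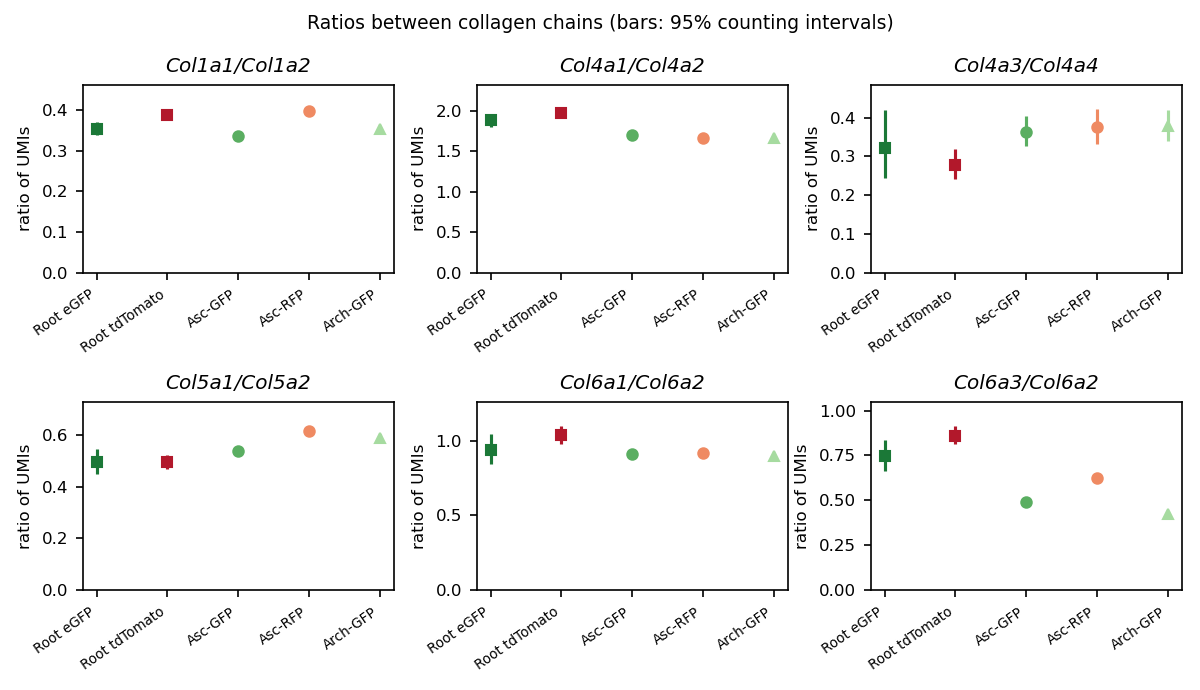
Ratio of the UMIs of 2 collagen chains (y axis, from 0) in the 5 groups, with 95% counting intervals, for 6 chain pairs; the pair Col4a3 and Col4a4 was added after its values were seen. The ratio of Col6a3 to Col6a2 is 0.744 and 0.861 in the Root groups and 0.425 in Arch-GFP, while that of Col6a1 to Col6a2 stays between 0.896 and 1.04.

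In the type IV network, Col4a3 and Col4a4 were called and the other 4 chains were not. Col4a1 and Col4a2, the chains of the basement membrane network found in nearly all tissues, were at 759 and 403 CPM in Root eGFP, 709 and 360 in Root tdTomato, 622 and 365 in Asc-GFP, 643 and 387 in Asc-RFP and 597 and 358 in Arch-GFP, and neither was called in any comparison. The X-linked Col4a5 (180 to 199 CPM over the 5 groups) and Col4a6 (124 to 175 CPM) were not called either. Col4a3 (chr1:82586921-82722059) and Col4a4 (chr1:82448423-82586849), which form a trimer with the Col4a5 chain in the kidney's filtration membrane, were the 2 that were called.

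Col4a4 was at 30.4 CPM in Root eGFP, 35.6 in Root tdTomato, 15.0 in Asc-GFP, 18.6 in Asc-RFP, with 12.7 in Arch-GFP. Col4a3 was at 9.78, 9.89, 5.46, 6.97 and 4.77 CPM in the same order, so both Root groups were above the other 3 for both genes, with no overlap of their counting intervals for Col4a4. Root eGFP was above Asc-GFP by 1.02 (0.81 to 1.22) for Col4a4 and 0.84 (0.47 to 1.20) for Col4a3. For Root tdTomato against Asc-RFP the ratios were 0.94 (0.80 to 1.07), a call, and 0.51 (0.27 to 0.74), not a call. Arch-GFP was below Root eGFP by -1.26 (-1.47 to -1.06) and -1.03 (-1.39 to -0.66). Col4a3 had 0.278 to 0.377 UMIs for each Col4a4 UMI over the 5 groups. The processed transcript C430014B12Rik lies opposite the 3′ end of Col4a3, and its share of the Col4a3 UMIs is not known, as the sources do not state how strand was treated. Gm15418 lies in the same way opposite the 3′ end of Col4a1, and Slc19a1 opposite that of Col18a1.

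Col8a1 (ENSMUSG00000068196, chr16:57624258-57754737, minus strand), the main type VIII chain, had the widest range of the 23 genes. It was at 27.4 CPM in Root eGFP (210 UMIs), 24.7 in Root tdTomato (633 UMIs), 12.0 in Asc-RFP (650 UMIs), 2.96 in Asc-GFP (249 UMIs) and 1.25 in Arch-GFP (126 UMIs). Within the root the ratio of eGFP to tdTomato cells was 0.15 (-0.09 to 0.37), an interval that includes equality. In the ascending aorta Asc-GFP was below Asc-RFP by -2.02 (-2.24 to -1.81). Root eGFP was above Asc-GFP by 3.21 (2.94 to 3.48), which is 9.25-fold, and Root tdTomato was above Asc-RFP by 1.04 (0.88 to 1.20), which is 2.05-fold. Arch-GFP was below Root eGFP by -4.46 (-4.79 to -4.13). Arch-GFP and Asc-GFP were both under 5 CPM, and Arch-GFP lay lower by -1.25 (-1.57 to -0.93) without entering the calls.

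The share of cells with a Col8a1 UMI followed the order of the levels. With each cell thinned to 4000 UMIs, 10.5% of Root eGFP cells had a Col8a1 UMI (8.11% to 13.3%), 8.0% of Root tdTomato (6.79% to 9.36%), 2.93% of Asc-RFP (2.41% to 3.54%), 0.751% of Asc-GFP and 0.400% of Arch-GFP cells. Before thinning the shares were 19.1%, 19.1%, 9.58%, 2.78% and 1.22%. Root barcodes with macrophage markers, cells that need not lack Col8a1 RNA of their own, had a Col8a1 UMI in 3 of 72 thinned cells, 4.17% (0.868% to 11.7%), with a median depth of 8420 UMIs against 13226 in all Root cells. That interval takes in the shares of both Root groups, so at the thinned depth those shares cannot be told from background. By level these barcodes held 12.7 CPM of Col8a1 (13 UMIs) against 27.4 in the other Root cells, which is 46.2%. The interval of that level, for counting error only, was 6.75 to 21.7 CPM. It lay below those of Root eGFP (23.8 to 31.3 CPM) and Root tdTomato (22.9 to 26.8 CPM). In Asc-RFP 0 of 23 thinned macrophage-marker cells had a Col8a1 UMI. That allows up to 13.0% (3 counts of 23), above the 2.93% of Asc-RFP, so this share cannot be told from background either. Summed over all collagen genes, macrophage-marker barcodes held 26.6% of the level of other cells in Root and 22.9% in Asc-RFP. Col8a1 levels without macrophage, endothelial and fibroblast marker barcodes were 25.6 CPM in Root eGFP, 24.7 in Root tdTomato, 2.96 in Asc-GFP, 11.9 in Asc-RFP, with 1.24 in Arch-GFP, close to those of all cells. The partner chain Col8a2 had only 2 to 14 UMIs in any group, and the third short-chain gene, Col10a1 of growth plate cartilage, stayed under the floor.

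The sex of the cells was looked at apart. In female cells alone Col8a1 was at 25.9, 24.8, 3.67, 13.9 and 2.09 CPM in Root eGFP, Root tdTomato, Asc-GFP, Asc-RFP and Arch-GFP, and in male cells at 39.0, 27.6, 1.54, 10.03 and 1.03 CPM. The order from root to arch was the same in both. The number of male cells in Root was small, 64 eGFP and 223 tdTomato.

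**Figure D4:**
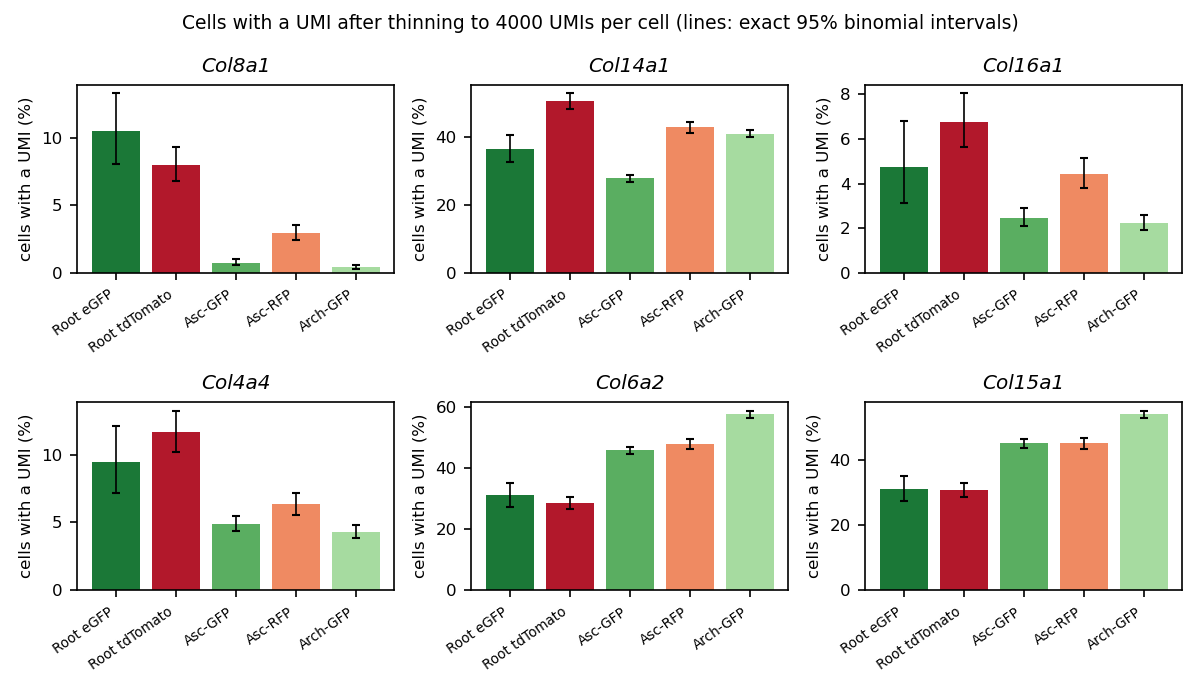
Share of cells with at least 1 UMI (y axis, percent, from 0) after thinning each cell to 4000 UMIs, for 6 collagen genes in the 5 groups; lines are exact 95% binomial intervals, for counting error only. Col8a1 falls from 10.5% of Root eGFP cells to 0.400% of Arch-GFP cells, while Col6a2 and Col15a1 are highest in Arch-GFP, at 57.8% and 53.9%.

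FACIT genes were called between the colours in both segments that held both. Col14a1 (chr15:55307750-55520803), whose product binds fibril surfaces and decorin, was at 162 CPM in Root eGFP, 258 in Root tdTomato, 103 in Asc-GFP, 189 in Asc-RFP, with 178 in Arch-GFP. In each of the 2 segments with both colours, tdTomato cells had the higher level, and Arch-GFP came near Asc-RFP. Asc-GFP was below Asc-RFP by -0.87 (-0.91 to -0.83), and Root eGFP was below Root tdTomato by -0.67 (-0.76 to -0.58). Arch-GFP and Root eGFP were above Asc-GFP by 0.79 (0.75 to 0.82) and 0.65 (0.56 to 0.73). After thinning, 36.6%, 50.6%, 27.8%, 42.9% and 41.1% of the cells of the 5 groups had a UMI, against 15.3% of Root macrophage-marker cells.

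In female cells alone Arch-GFP was above Asc-GFP by 0.50 for Col14a1 and Root eGFP above Asc-GFP by 0.53, both short of the call, and in male cells the first ratio was 1.09. In cells held to stricter limits (at least 2000 genes, at most 5% mitochondrial UMIs) the ratio of the Root colours was -0.55, also short of the call. The summed level of 12 fibroblast markers followed the order of Col14a1 over the groups: 37.1 CPM in Asc-GFP, 44.3 in Root eGFP, 55.7 in Arch-GFP, 57.9 in Asc-RFP and 86.8 in Root tdTomato. Of those markers 3 or 4 passed 5 CPM in each group, Scara5 was at 0 in both tdTomato groups and in Root eGFP, and Dpt and Ly6c1 were at 0 in Root eGFP. Without the barcodes that held macrophage, endothelial or fibroblast markers, Col14a1 was at 162, 264, 104, 190 and 178 CPM in the order used above, nearly the levels of all cells. Whether cells with fibroblast markers had a part in the Col14a1 levels was not tested.

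Col16a1 (chr4:130047840-130099283), a FACIT of small fibrils and microfibrils, was at 10.7, 17.8, 6.78, 10.7 and 5.20 CPM. It was lower in the eGFP cells of both segments, by -0.66 (-0.83 to -0.49) in the ascending aorta and -0.74 (-1.09 to -0.40) in the root. The Root groups exceeded the ascending group of their colour by 0.73 (0.55 to 0.91) in tdTomato cells and 0.66 (0.31 to 0.99) in eGFP cells, and Arch-GFP lay below Root eGFP by -1.04 (-1.38 to -0.69). Within male cells the ratio of the Root colours was -0.11. After thinning, the share of cells with a Col16a1 UMI was 4.43% in Asc-RFP and 4.35%, 1 of 23 cells, among macrophage-marker barcodes of that library, so at that depth the share in Asc-RFP cannot be told from background. In Root the share was 6.24% and 0 of 72 macrophage-marker cells, which allows up to 4.17% (3 counts of 72), with an exact upper bound of 4.99%. Before thinning 6 Col16a1 UMIs lay in the 100 macrophage-marker barcodes of Root, 5.85 CPM against 16.4 in the other Root cells, which is 35.7%. Col19a1, a rare FACIT of basement membrane zones, was at 10.4, 6.53, 7.29, 8.67 and 6.74 CPM. It was called higher in Root eGFP than in Root tdTomato at 0.68 (0.27 to 1.07) and lower in Arch-GFP than in Root eGFP at -0.63 (-0.97 to -0.28), and in male cells alone the direction of both turned (-0.79 and 0.47).

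The first 2 chains of type VI collagen had their lowest levels in the root and their highest in the arch. Col6a1 (chr10:76708792-76726168) was at 88.8 CPM in Root eGFP, 100.1 in Root tdTomato, 155 in Asc-GFP, 161 in Asc-RFP, with 212 in Arch-GFP. Col6a2 (chr10:76595762-76623630), its neighbour on chromosome 10, was at 94.4, 96.5, 170, 175 and 236 CPM. For both genes the 2 colours of a segment lay close together and the 3 segments did not overlap. Root eGFP was below Asc-GFP by -0.80 (-0.92 to -0.69) and -0.85 (-0.96 to -0.74), Root tdTomato below Asc-RFP by -0.68 (-0.75 to -0.62) and -0.86 (-0.92 to -0.79), and Arch-GFP above Root eGFP by 1.25 (1.14 to 1.37) and 1.32 (1.22 to 1.43). Arch-GFP was above Asc-GFP by 0.45 and 0.48, short of the call.

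Col6a3, the long chain that joins Col6a1 and Col6a2 in the type VI monomer, did not keep step. It was at 70.3, 83.1, 83.6, 109 and 100.4 CPM and was called in none of the comparisons. Its UMIs for each Col6a2 UMI were 0.744 in Root eGFP, 0.861 in Root tdTomato, 0.493 in Asc-GFP, 0.625 in Asc-RFP, with 0.425 in Arch-GFP. In each segment with both colours the ratio was higher in tdTomato cells. Col6a6, an alternative to Col6a3, was at 5.61, 7.35, 6.37, 4.26 and 10.5 CPM, higher in Arch-GFP than in Asc-GFP by 0.72 (0.57 to 0.87) and higher in Root tdTomato than in Asc-RFP by 0.79 (0.50 to 1.07). In male cells alone the second ratio was -0.01.

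Col15a1 (chr4:47208161-47313167), a multiplexin of the outer basement membrane, followed Col6a1 and Col6a2 over the segments. It was at 119 CPM in Root eGFP, 111 in Root tdTomato, 179 in Asc-GFP, 170 in Asc-RFP, with 239 in Arch-GFP. Root eGFP was below Asc-GFP by -0.59 (-0.69 to -0.50), Root tdTomato below Asc-RFP by -0.62 (-0.68 to -0.56), and Arch-GFP above Root eGFP by 1.01 (0.92 to 1.11). All 3 calls were lost in female cells, where the ratios were -0.43, -0.56 and 0.51. Male Root eGFP cells, 64 in number, had 51.5 CPM against 130 in female Root eGFP cells, while in Arch-GFP males had 261 and females 184. Col18a1, the source of endostatin, was at 867, 952, 935, 811 and 935 CPM and was not called. Over the segments, summed pericyte markers rose with Col6a1, Col6a2 and Col15a1, at 90.3, 75.5, 248, 210 and 515 CPM in the same order. Within the root and the ascending aorta, the pericyte sum and Col15a1 were higher in eGFP cells, and Col6a1 and Col6a2 were lower in them. Of the pericyte markers, 3 of 5 passed 5 CPM in every group and Vtn was at 0 throughout. Their part in the result was not tested.

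**Figure D5:**
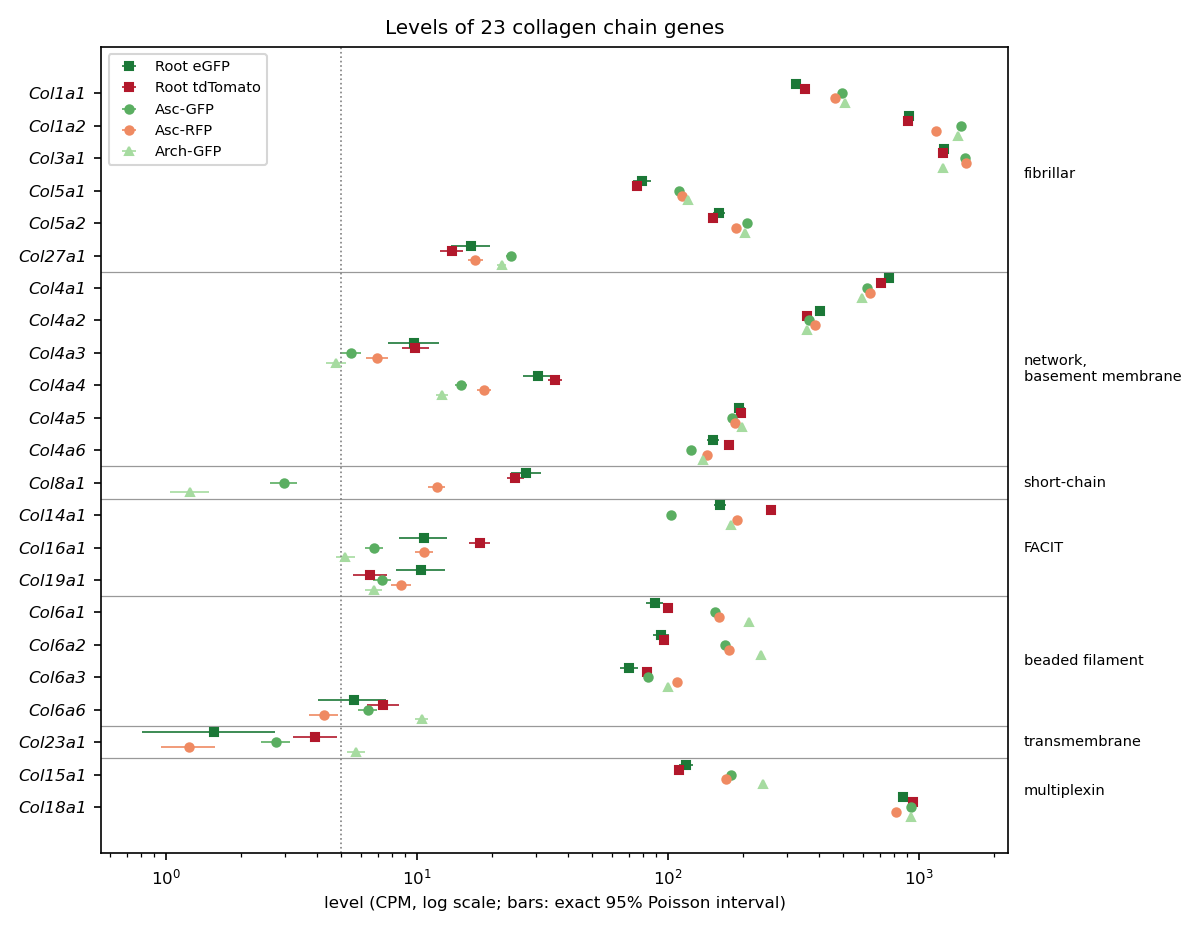
Level of the 23 collagen genes (x axis, CPM, log scale) in the 5 groups, by class; lines are exact 95% Poisson intervals and the dotted line is the 5 CPM floor. Squares (Root) lie left of circles (ascending) and triangles (arch) for genes that include Col1a1, Col1a2, Col6a1, Col6a2 and Col15a1. They lie right of them for Col4a1, Col4a3, Col4a4, Col4a6 and Col8a1.

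Col23a1, a transmembrane collagen, was at 1.56 CPM in Root eGFP, 3.95 in Root tdTomato, 2.75 in Asc-GFP, 1.24 in Asc-RFP, with 5.75 in Arch-GFP. Only Arch-GFP passed the floor, so only the comparisons with that group were measured. It was above Asc-GFP by 1.07 (0.84 to 1.29) and above Root eGFP by 1.88 (1.06 to 2.84); in female cells alone, at 4.45 CPM in Arch-GFP, the gene was under the floor and both calls were lost.

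In the root Col23a1 lay mostly in barcodes with markers of other cell types. Of its 121 Root UMIs, 85 were in the 149 barcodes with macrophage, endothelial or fibroblast markers, and the macrophage-marker barcodes held 0 of them. Of the 19 barcodes with fibroblast markers, 12 also carried endothelial markers. Without marker barcodes Col23a1 was at 1.57 CPM in Root eGFP, 0.809 in Root tdTomato, 2.75 in Asc-GFP, 1.09 in Asc-RFP, with 5.71 in Arch-GFP, so the level in Root tdTomato fell and that in Arch-GFP hardly moved.

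A set of 228 Root cells had at least 5 UMIs of Lum plus Dcn, the small proteoglycans lumican and decorin, and 33 of them were marker barcodes. Col23a1 was at 26.8 CPM in the 228 cells against 1.11 in the 2308 cells with no Lum or Dcn UMI, and with marker barcodes left out it had 0 UMIs in the remaining 195. The same cells had more Col8a1 (70.4 against 21.8 CPM), Col4a4 (86.0 against 29.9), Col4a3 (22.0 against 8.92), Col6a6 (14.3 against 5.85) and Col14a1 (348 against 219), and less Col15a1 (61.8 against 114) and Col18a1 (548 against 963). Col4a1 and Col4a2 were a little lower in them, by -0.22 and -0.23, and Col5a1, Col6a2 and Col6a3 had intervals that include equality. The fibrillar genes Col1a1 (460 against 331 CPM), Col3a1 (1543 against 1182) and Col1a2 (1021 against 880) were higher, by 0.48, 0.38 and 0.21. With marker barcodes left out those ratios were 0.42, 0.42 and 0.25. Without marker barcodes the difference stayed for Col8a1 (73.3 against 21.6 CPM), Col4a4 (79.9 against 30.3), Col4a3 (20.5 against 8.98), Col6a6 (13.2 against 5.97), Col14a1 (379 against 223), Col15a1 (68.5 against 116) and Col18a1 (575 against 983). Of the 228 cells 7.46% were Root eGFP cells, against 21.6% of those with no Lum or Dcn UMI, and the median depths were 13523 and 13166 UMIs. Without them Col8a1 in the root was at 25.4 CPM in eGFP and 20.9 in tdTomato cells, and Col4a4 at 29.8 and 30.6 CPM, still above the other segments.

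Spread over the cells of a group was widest for Col3a1 in each of the 5 groups. As the variance over the mean of thinned UMIs, which is 1 for random capture alone and tends to be higher for abundant genes, Col3a1 had 3.35 in Root eGFP, 3.01 in Root tdTomato, 2.45 in Asc-GFP, 2.50 in Asc-RFP, with 2.21 in Arch-GFP. Col1a2 had 1.97, 1.85, 2.06, 1.83 and 2.19 in the same order, and Col14a1 had 1.85, 2.20, 1.55, 1.74 and 1.95. Among rarer genes, Col8a1 had 1.96 in Asc-RFP, where a single thinned cell reached 9 UMIs, against 1.06 to 1.42 in the other 4 groups. Col23a1 had 2.23 in Root tdTomato, where it lay mostly in marker barcodes, against 0.995 to 1.12 elsewhere. Set against genes of similar mean, Col3a1 exceeded 95.7%, 97.8%, 94.3%, 83.3% and 93.0% of them in the group order above. Col14a1 exceeded 97.4%, 95.1%, 98.6%, 96.2% and 99.4%, and so stood higher than Col3a1 except in Root tdTomato.

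Over single cells within a group, UMIs of chains were weakly related, as a description only, since the cells share a library and depth. The groups held 571, 1787, 6125, 3615 and 7244 thinned cells in the order Root eGFP, Root tdTomato, Asc-GFP, Asc-RFP and Arch-GFP. Pearson's r in that order was 0.353, 0.310, 0.360, 0.336 and 0.333 for Col1a1 with Col1a2, and 0.399, 0.409, 0.365, 0.329 and 0.234 for Col1a2 with Col3a1. Col4a1 with Col4a2 gave 0.269, 0.248, 0.201, 0.255 and 0.158, and Col6a1 with Col6a2 gave 0.0253, 0.102, 0.0988, 0.152 and 0.180.

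Of the 20 genes with UMIs that stayed under the floor, the highest was Col12a1, a FACIT, at 3.00 CPM in Root eGFP and 1.52 to 2.53 CPM in the other 4 groups. Among them were 5 of 11 fibrillar genes, Col2a1 of cartilage included, 6 of 9 FACIT genes, 3 of 4 transmembrane genes, the anchoring fibril gene Col7a1 of skin and 2 unclassified genes. All 6 network genes and both multiplexins passed the floor.

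Enzymes, chaperones and receptors of collagen were given by a list of 43 genes, which covered prolyl and lysyl hydroxylases, the chaperone Serpinh1, secretion factors, procollagen proteases, lysyl oxidases and collagen receptors, and 34 were measured in each comparison, of which 1 to 5 were called. In Asc-GFP against Asc-RFP 0 were higher and 2 lower, the procollagen C-protease enhancer Pcolce (7.07 against 16.1 CPM, -1.19) and the cross-linker Loxl2 (10.8 against 29.3 CPM, -1.44). Both were again among the 3 higher in Arch-GFP than in Asc-GFP, with the collagen-binding integrin Itga10 (20.8 against 11.7 CPM, 0.83), and 0 were lower.

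Root tdTomato had 0 higher and 3 lower than Asc-RFP: the prolyl 3-hydroxylase P3h2 (10.7 against 24.2 CPM, -1.17), Loxl2 (-0.87) and Loxl3 (-0.91). Root eGFP had 1 higher than Asc-GFP, Pcolce (13.7 against 7.07 CPM, 0.95), and 3 lower, P3h2 (-0.85), the procollagen C-protease Bmp1 (-0.61) and Loxl3 (-0.59). Arch-GFP had 5 higher than Root eGFP and 0 lower: the chaperone Fkbp10 (0.62), Bmp1 (0.77), Loxl1 (163 against 104 CPM, 0.64), Loxl2 (1.01) and Loxl3 (0.81). Root eGFP against Root tdTomato had 0 higher and 1 lower, Loxl2 (9.13 against 16.0 CPM, -0.81). Over all genes, 1.32% were higher and 1.55% lower in Asc-GFP against Asc-RFP, and 1.73% and 0.534% in Arch-GFP against Asc-GFP. The shares were 4.36% and 2.28% in Root tdTomato against Asc-RFP, and 2.8% and 2.97% in Root eGFP against Asc-GFP. They were 5.53% and 3.73% in Arch-GFP against Root eGFP, and 1.09% and 3.1% in Root eGFP against Root tdTomato.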

How the data were processed

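Per the labels, ITGA8-sorted aortic cells were processed with the 10x 3′ kit version 3.1. Deposited values are UMI counts per gene and barcode from Cell Ranger 7.0.0, per the file headers. The submitters' processing notes name mm10 and Seurat 4.3, the output of which was not used here. The treatment of intronic and antisense reads is not stated, and free RNA was not removed. A barcode was kept from 1000 detected genes with mitochondrial UMIs up to 10%, 21429 in all with 39691658 to 100987052 UMIs per library; the labels state 1841 to 4710 cells after the submitters' filter. No doublet caller was run; a doublet alternative is in the closing section. Root eGFP cells had at least 8 eGFP and at most 1 tdTomato UMIs, Root tdTomato cells at least 2 tdTomato and at most 3 eGFP UMIs. UMIs were summed per group (CPM). Intervals, at 95% and for counting error only, were exact Poisson for levels, conditional binomial for ratios and binomial for shares. Marker barcodes had at least 10 UMIs from at least 3 markers of a type. Cells were thinned to 4000 UMIs (seed 1), leaving out 122 to 787 shallower cells per library. Every gene at 5 CPM in a group was named, as was each called gene of the biosynthesis list. The members, lists and rules were chosen with earlier results of these data known. Python 3.11.15, numpy 2.4.6, scipy 1.17.1 and pandas 2.3.3 were used.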

Additional observations from a re-analysis of the deposited data

Results flagged for a closer look

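Some genes had ratios of opposite sign in 2 comparisons by colour or 2 by segment, each with a counting interval that leaves out 0. The difference between the 2 ratios was not tested, and each rests on single libraries. The Root colours are parts of 1 library, while the ascending colours are 2 libraries, with female shares of 70.1% and 54.4%. Each ratio of root to ascending cells also crosses 2 libraries. Differences between libraries therefore enter those ratios and not the ratio within the root. For eGFP against tdTomato cells, the log2 ratio was 0.0885 in the ascending aorta and -0.1120 in the root for Col1a1, -0.0458 and 0.0977 for Col4a1, -0.0833 and 0.1652 for Col4a2, 0.2050 and -0.1352 for Col18a1, and -0.2509 and 0.6759 for Col19a1. For root against ascending cells, it was -0.1039 in tdTomato and 0.1446 in eGFP cells for Col4a2, 0.2316 and -0.1086 for Col18a1, and -0.4098 and 0.5171 for Col19a1. Of these 16 ratios 1 was a call, that of Col19a1 within the root.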

How the results depend on the processing

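Over 72 recomputed counts of called collagen genes, 59 stayed within 1.5 times the count reported. A count does not show which genes were called. Between the Root colours it went from 3 to 4 in male cells, with only 1 gene shared. In Asc-GFP against Asc-RFP the count of 3 became 5 with a floor of 1 CPM, 1 with a floor of 20 CPM and 1 at 2-fold. In Arch-GFP against Asc-GFP the count of 3 became 1 in female cells, 1 with a floor of 20 CPM and 1 at 2-fold. At 2-fold Root tdTomato against Asc-RFP gave 1 and Root eGFP against Asc-GFP gave 2. Arch-GFP against Root eGFP gave 8 with a floor of 20 CPM and 8 at 2-fold. Root eGFP against Root tdTomato gave 5 with a floor of 1 CPM, 1 with a floor of 20 CPM and 0 at 2-fold. Higher floors and folds admit fewer genes by construction; for female cells the cause was not tested. Of 382 recomputed values of the 40 called ratios, 3 changed sign, all in male cells: Col6a6 in Root tdTomato against Asc-RFP (-0.0052), Col19a1 in Arch-GFP against Root eGFP (0.4717) and Col19a1 in Root eGFP against Root tdTomato (-0.7853), and the cause was not tested. Smaller moves are not all listed, such as Col14a1 in Asc-GFP against Asc-RFP, at -0.77 in female and -1.07 in male cells. Apart from the 3 sign changes, 11 values moved by over 1.5 times in fold. In female cells it was Col8a1 in Arch-GFP against Root eGFP (-3.63). In male cells they were Col8a1 in Asc-GFP against Asc-RFP (-2.71), Root eGFP against Asc-GFP (4.66) and Arch-GFP against Root eGFP (-5.24), Col6a2 and Col15a1 in Root eGFP against Asc-GFP (-1.85 and -1.90) and in Arch-GFP against Root eGFP (2.40 and 2.34), and Col16a1 in the same pair (1.41 and -1.73) and between the Root colours (-0.11). Male Root eGFP cells numbered 64. Leaving out Root cells rich in Lum and Dcn, an alternative chosen after seeing the data, ended 1 call, Col15a1 in Root tdTomato against Asc-RFP. Apart from higher floors and folds, which end calls by construction, and the female and Lum and Dcn settings given here or in the text, calls ended as follows. Stricter cells ended Col16a1 in Root eGFP against Asc-GFP, Col5a1 and Col6a6 in Arch-GFP against Root eGFP and Col14a1 between the Root colours. Leaving out marker barcodes ended Col5a1 in Root tdTomato against Asc-RFP. Leaving out possible doublets ended both Col19a1 calls, equal weight per cell ended the one between the Root colours and the tight reporter rule ended the one against Arch-GFP. Centring on all genes ended Col15a1 in Root eGFP against Asc-GFP and Col5a1 in Arch-GFP against Root eGFP. Female cells also ended Col14a1 and Col16a1 in Root eGFP against Asc-GFP. Male cells ended Col5a1 in Root tdTomato against Asc-RFP, Col4a3 in Root eGFP against Asc-GFP, and Col6a6 and Col23a1 in Arch-GFP against Root eGFP. Calls were also gained, apart from those with a floor of 1 CPM. In Asc-GFP against Asc-RFP they were Col6a6 (stricter cells, marker barcodes out, possible doublets out) and Col27a1 (male cells). In Root tdTomato against Asc-RFP they were Col4a3 (marker barcodes out, male cells), Col23a1 (stricter cells, male cells) and Col1a2 (male cells). In Root eGFP against Asc-GFP they were Col27a1 (tight rule, equal weight), Col19a1 (female cells) and Col12a1 (male cells). In Arch-GFP against Root eGFP they were Col6a3 (female cells) and Col4a5, Col5a2 and Col12a1 (male cells). Between the Root colours they were Col23a1 (stricter cells) and Col6a2, Col12a1 and Col15a1 (male cells). No paired analysis was possible because each group is 1 library with no replicate number. Depth limits Root eGFP most, with 7670195 UMIs, where a gene near 5 CPM rests on few UMIs.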
